A study of Mus musculus with 6 samples.

Results

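Twist1, Twist2, Tcf3, Tcf4 and Tcf12 encode basic helix-loop-helix transcription factors, and the ATAC-seq peaks called around these 5 genes were compared between the epithelium and the mesenchyme of the mouse palatal shelf. The shelves came from C57BL/6 embryos at embryonic stage E14.5. The epithelium, basal and periderm layers together, was lifted off by hand after trypsin, and what remained of the shelf, largely mesenchyme, was the comparison tissue. Each tissue was represented by 3 libraries, and neither tissue carried a transgene, a mutation or a drug. A peak belonged to a gene when its midpoint lay in the gene body or within 100 kb of its start site on mm10, so all 5 of the 21911 annotated protein-coding genes could be followed. In these windows the epithelium libraries held 266, 303 and 267 peaks, against 276, 316 and 270 in the mesenchyme libraries. Overlapping peaks were merged into regions, and 268 such regions around these genes were seen in 2 or more libraries and kept, of 342690 in the genome.

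Twist1 and Twist2 are the mesenchymal partners in this group. They bind DNA as dimers, often with an E-protein, at the E-box, a short element that reads CANNTG on either strand, and Twist1 is needed in the cranial neural crest that gives rise to the palatal mesenchyme. Tcf3, Tcf4 and Tcf12 encode the E-proteins, which are made in many tissues and pair with tissue-restricted helix-loop-helix factors. The Id proteins lack a DNA-binding region and hold E-proteins off DNA. In humans, loss of one copy of TWIST1 or TCF12 causes early fusion of skull sutures, and loss of one copy of TCF4 causes Pitt-Hopkins syndrome.

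The sequences below are of regions with peaks in only 1 of the tissues around Twist1, Twist2 and Tcf12, and of the Twist promoters. No single region was tested, and the share of such regions at the 5 genes was close to that in the genome, as given below. Epithelium-only regions had peaks in the 3 epithelium libraries and in none from mesenchyme, and mesenchyme-only regions had the reverse. For each region the stretch shared by the peaks of its 3 libraries is printed, or the central 300 bases of it, on the plus strand of mm10 (GRCm38.p6), with every E-box in capitals. The mesenchyme-only region of Twist1, at chr12:34040161-34040319 and 82.6 kb downstream of the start site, had no E-box. The mesenchyme-only region of Twist2 with the most covered bases, at chr1:91860791-91861090, had 2, and the epithelium-only region of Twist2, at chr1:91883141-91883440, had 5.
Twist1, mesenchyme-only: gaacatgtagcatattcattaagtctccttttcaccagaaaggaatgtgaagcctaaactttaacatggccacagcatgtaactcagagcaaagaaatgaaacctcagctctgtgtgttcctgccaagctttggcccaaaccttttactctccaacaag
Twist2, mesenchyme-only: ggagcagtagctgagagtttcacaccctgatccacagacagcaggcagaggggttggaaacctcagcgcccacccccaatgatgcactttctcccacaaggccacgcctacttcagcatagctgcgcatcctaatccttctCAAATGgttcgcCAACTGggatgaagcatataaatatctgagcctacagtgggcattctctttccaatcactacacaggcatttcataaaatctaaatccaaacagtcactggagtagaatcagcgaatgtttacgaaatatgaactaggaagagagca
Twist2, epithelium-only: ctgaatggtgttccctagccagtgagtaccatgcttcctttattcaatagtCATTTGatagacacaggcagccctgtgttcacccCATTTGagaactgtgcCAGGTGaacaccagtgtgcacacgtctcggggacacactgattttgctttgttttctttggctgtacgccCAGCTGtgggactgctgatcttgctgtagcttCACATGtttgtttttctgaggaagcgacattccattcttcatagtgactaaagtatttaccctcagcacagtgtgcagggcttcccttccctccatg

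The introns of Tcf12 held regions of both kinds, and 1 of each is printed to set them side by side. The epithelium-only one, at chr9:71915903-71916202, had 4 E-boxes, among them CACCTG, which is CAGGTG on the other strand. The mesenchyme-only one, at chr9:71959704-71960003, had 3 E-boxes, among them 2 copies of CAGCTG placed end to end. Tcf12 lies on the minus strand, so both are printed against its direction of transcription. Of the Tcf12 regions not printed, the epithelium-only one, at chr9:72021507-72021806, had no E-box. The mesenchyme-only one, upstream of the start at chr9:72184058-72184274, had 1. The stretches printed in this report differ in length, and no background is given for the E-box counts of the tissue-only regions.
Tcf12, epithelium-only: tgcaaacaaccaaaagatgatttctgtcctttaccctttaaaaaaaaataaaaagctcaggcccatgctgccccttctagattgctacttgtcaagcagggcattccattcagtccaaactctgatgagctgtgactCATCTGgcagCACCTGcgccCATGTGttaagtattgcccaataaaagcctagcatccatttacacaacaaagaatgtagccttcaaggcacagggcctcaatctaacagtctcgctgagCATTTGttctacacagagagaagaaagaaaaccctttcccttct
Tcf12, mesenchyme-only: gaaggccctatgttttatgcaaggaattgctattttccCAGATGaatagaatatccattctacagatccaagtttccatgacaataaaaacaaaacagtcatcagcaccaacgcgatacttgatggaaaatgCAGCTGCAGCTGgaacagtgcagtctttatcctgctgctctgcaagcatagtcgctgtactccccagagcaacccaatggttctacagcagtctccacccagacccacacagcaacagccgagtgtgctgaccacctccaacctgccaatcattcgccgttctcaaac

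The 250 bases upstream of the Twist1 and Twist2 start sites, taken from RefSeq on GRCm38.p6 and read in the direction of transcription, are shown. Both lay inside a peak in every library. Neither held an E-box, whereas 66.2% of 32851 promoter sequences of the same length in the genome did. Promoters at Tcf3 (chr10:80433636-80433885) and Tcf12 (chr9:72111202-72111451 and chr9:72111820-72112069) also lay inside a peak in every library. Each of these held 1 E-box, so the lack of an E-box was not shared by the group.
Twist1 promoter, chr12:33957421-33957670: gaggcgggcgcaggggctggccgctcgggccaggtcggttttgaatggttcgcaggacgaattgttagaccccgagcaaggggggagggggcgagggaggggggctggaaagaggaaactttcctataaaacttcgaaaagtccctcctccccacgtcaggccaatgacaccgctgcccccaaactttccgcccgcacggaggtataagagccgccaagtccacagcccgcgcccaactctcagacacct
Twist2 promoter, chr1:91801211-91801460: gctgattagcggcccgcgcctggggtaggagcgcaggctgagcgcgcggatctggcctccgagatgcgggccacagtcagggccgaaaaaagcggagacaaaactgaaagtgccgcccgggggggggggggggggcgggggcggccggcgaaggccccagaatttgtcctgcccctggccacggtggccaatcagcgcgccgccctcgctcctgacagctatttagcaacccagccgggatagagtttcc

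The deposited lists give positions only, with no height or score. Epithelium libraries 1, 2 and 3 held 270003, 349322 and 296695 peaks, against 295141, 341741 and 315468 in mesenchyme libraries 1, 2 and 3, and the depth in reads is unknown. By tissue-only regions, the marker lists of the tissues went with the labels. Of the regions near 8 epithelium markers, among them Trp63 and Epcam, 23 were epithelium-only and 5 mesenchyme-only, and their scaled peak number was 403 to 421 in epithelium and 363 to 385 in mesenchyme. Near 8 palate mesenchyme markers, among them Prrx1 and Osr2, 3 regions were epithelium-only and 16 mesenchyme-only, and their scaled peak number was 396 to 454 in epithelium and 439 to 493 in mesenchyme, with overlap. More scaled peaks in epithelium on average were seen at 6 of the 8 epithelium markers and 3 of the 8 mesenchyme markers. By limma, 1 epithelium marker was called with more and 1 mesenchyme marker with fewer peaks in epithelium. In the genome 2.98% of kept regions were epithelium-only and 2.2% mesenchyme-only. Near markers of other cells the counts of epithelium-only and mesenchyme-only regions were 5 and 7 for 5 endothelial genes, 1 and 6 for 4 leukocyte genes, 0 and 2 for 4 muscle genes, and 2 and 3 for 4 nerve and glia genes. No marker was without peaks in any library, and the part of these other cells in the results below was not tested. In bulk tissue a region open in fewer cells and a region less open in each cell cannot be told apart.

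The first question was whether the number of peaks around each gene differed between the tissues. None of the 5 genes was called different. Across all 21723 genes tested, 323 (1.49%) had more peaks in epithelium and 359 (1.65%) fewer, 3.14% in all, by limma on the log2 scale of the scaled number of peaks plus 1, with Benjamini-Hochberg adjusted p under 0.05. The median log2 difference, epithelium minus mesenchyme, was 0.04 over the 5 genes and -0.02 over all genes tested. With peaks scaled to the mean list length, the values by library are drawn in the plot of peaks in each gene window.

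**Figure D1:**
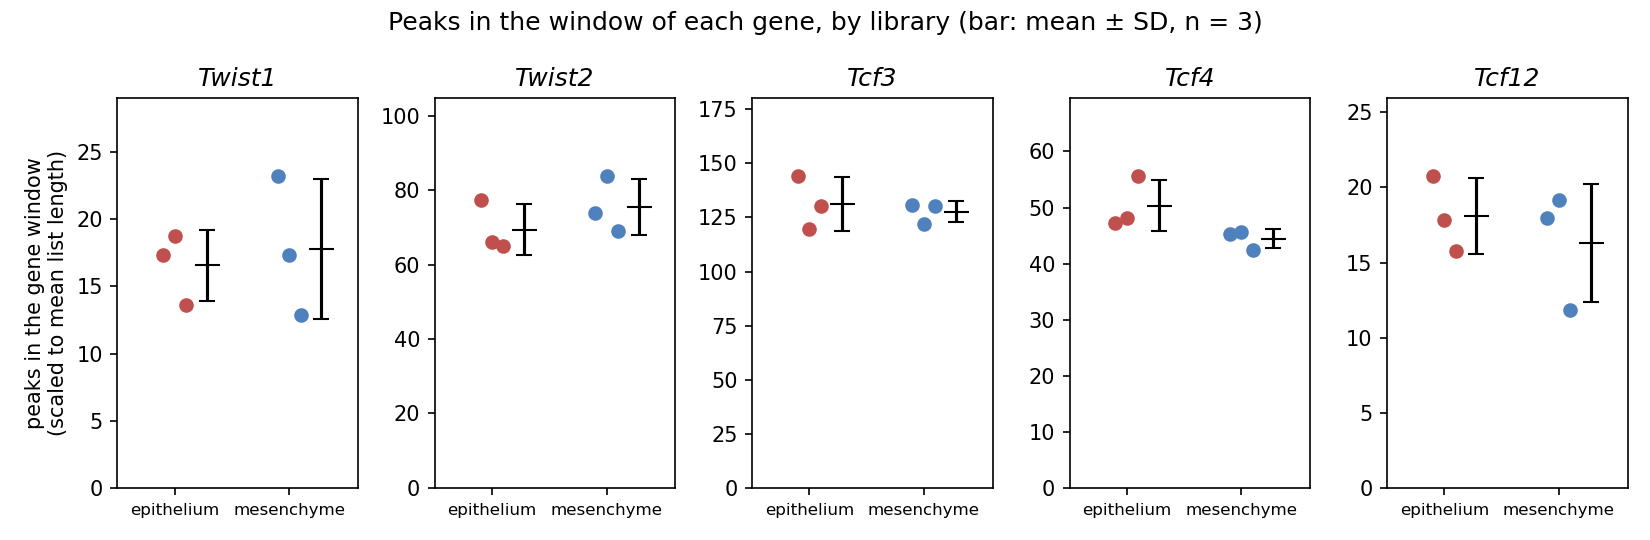
Peaks in the window of each gene, scaled to the mean list length (y axis, from 0), in 3 epithelium (red, left) and 3 mesenchyme libraries (blue, right), with the mean and SD as black bars. The tissues overlap at every gene except Tcf4, where epithelium lies at 47.3 to 55.6 and mesenchyme at 42.4 to 45.6 scaled peaks.

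Twist1, whose product directs mesenchymal programs and skull suture formation, is a short gene at chr12:33957671-33959829 on the plus strand. Its window held 15, 21 and 13 peaks in epithelium libraries 1, 2 and 3, against 22, 19 and 13 in mesenchyme libraries 1, 2 and 3. The lowest value, 13, occurred in both tissues, and their ranges overlapped. The means were 16.3 ± 4.16 peaks in epithelium and 18.0 ± 4.58 peaks in mesenchyme (SD, n = 3 each), and the log2 difference of scaled peaks was -0.07 (SE 0.24, limma adjusted p = 0.910). The 95% interval of the fold ran between 0.684 and 1.32, so changes within this range, in either direction, were not excluded. An exact permutation test, two-sided, gave p = 0.8, where the smallest p that 3 against 3 libraries allow is 0.1. The 100 kb before the start held 2, 6 and 3 peaks in epithelium and 9, 7 and 2 in mesenchyme, and the flank beyond the gene held 12, 14 and 9 in epithelium and 12, 11 and 10 in mesenchyme.

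The Twist1 promoter was open in both tissues. The region over its start, chr12:33956579-33959206, covered the whole of the printed promoter and reached into the first exon, with 1951, 2589 and 2121 bp under peaks in epithelium, against 2370, 2228 and 2416 bp in mesenchyme. Within 2.5 kb of the start site, 2231, 3044 and 2440 bp were covered in epithelium and 2870, 2585 and 2831 bp in mesenchyme, a log2 difference of -0.0030 (SE 0.14, limma adjusted p = 0.996). The tissues overlapped in each of these measures. The widest region in all 6 libraries, chr12:33966373-33969213, was intergenic and 10.1 kb downstream, with 1791, 1828 and 1178 bp in epithelium, against 2161, 1787 and 2051 bp in mesenchyme.

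Of the 18 kept regions around Twist1, 5 had a peak in all 6 libraries, none was epithelium-only and 1 was mesenchyme-only. That region, chr12:34040105-34040415, is the first one printed above, and mesenchyme libraries 1, 2 and 3 had 255, 201 and 264 bp under peaks there. It lay in the gap between Twist1 and Hdac9, the next gene on this side, which is known to hold distant enhancers of Twist1. Its peaks were close to the smallest width in any list, 199 bp. With only peaks of at least 300 bp counted, Twist1 had 0 mesenchyme-only regions. Whether the region acts on Twist1 was not tested. Another region, chr12:34051206-34052911, was centred in an exon of Hdac9 94.4 kb from the Twist1 start and had peaks in every library. It covered 841, 854 and 758 bp in epithelium, against 1045, 1329 and 1663 bp in mesenchyme, so every epithelium library was narrower than every mesenchyme library. Of all regions with a peak in all 6 libraries, 10.6% were narrower in epithelium in this way. The other end of the window held Ferd3l, a neural helix-loop-helix gene, with 1 region in all 6 libraries, chr12:33928480-33929283, that covered 199, 410 and 773 bp in epithelium and 546, 256 and 605 bp in mesenchyme.

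Twist2, the close relative of Twist1 known for its role in dermis and other mesenchyme, lies at chr1:91801461-91848028 on the plus strand. Its window held 67, 74 and 62 peaks in epithelium libraries 1, 2 and 3, against 70, 92 and 70 in mesenchyme libraries 1, 2 and 3. Scaled to list length, the values were 77.3, 66.0 and 65.1 in epithelium, against 73.9, 83.8 and 69.1 in mesenchyme, so mesenchyme library 2 was the highest and epithelium library 1 lay above the other mesenchyme libraries. The mean was 67.7 ± 6.03 peaks in epithelium libraries and 77.3 ± 12.7 peaks in mesenchyme libraries (SD, n = 3 each), with a log2 difference of -0.12 (SE 0.12, limma adjusted p = 0.654) and a 95% interval of the fold between 0.776 and 1.09. The exact permutation p was 0.4. Counted per length the Twist2 window was dense in peaks, with a mean of 36.2 per 100 kb against 8.58 per 100 kb at Twist1, at percentiles 77.3 and 28.3 of all genes tested.

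Around Twist2, 92 regions were kept, 10 of them with a peak in all 6 libraries, 1 epithelium-only and 4 mesenchyme-only. The map of the Twist windows shows how they were spread. The mesenchyme-only region printed above, chr1:91860628-91861352, lay 59.5 kb downstream of the start and covered 650, 328 and 684 bp in mesenchyme libraries 1, 2 and 3. The others were narrower. Those at chr1:91842654-91842972, in an intron, and chr1:91900253-91900664, 99.0 kb downstream, covered 199 to 215 bp and 254 to 371 bp, and 199 bp is the smallest width in any list. In the fourth, chr1:91709214-91710041, the peaks of the 3 mesenchyme libraries had no base in common. The epithelium-only region, chr1:91883033-91883607, covered 537, 359 and 548 bp in epithelium libraries 1, 2 and 3. Under a looser rule, by which 2 libraries of a tissue and none of the other sufficed, 4 regions counted for epithelium (4.35%, against 10.5% in the genome) and 7 for mesenchyme (7.61%, against 11.4% in the genome), both below the background.

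**Figure D2:**
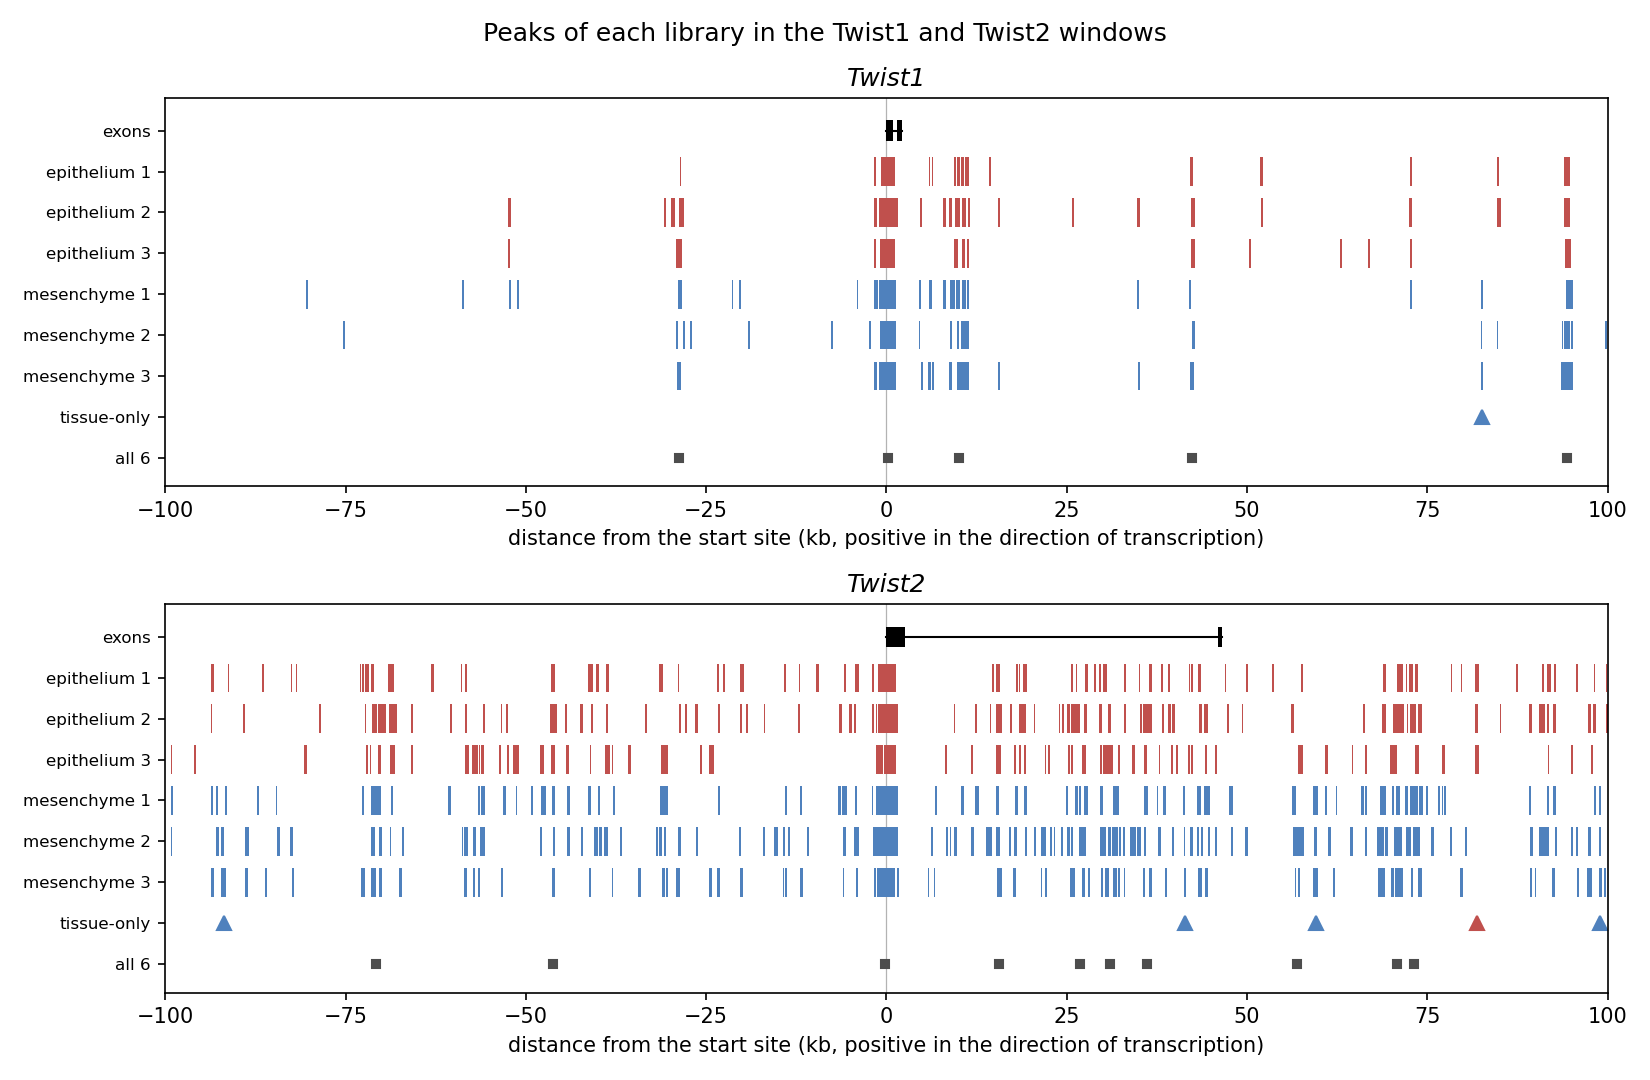
Peaks by library along the Twist1 and Twist2 windows (x axis, kb from the start site, positive in the direction of transcription), with epithelium libraries in red above mesenchyme libraries in blue, exons in black, tissue-only regions as triangles and regions in all 6 libraries as squares. Twist1 has 1 blue triangle and 5 squares; Twist2 has 1 red and 4 blue triangles and 10 squares.

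The Twist2 promoter was likewise covered in every library. The start region chr1:91799402-91803141 was the widest at this gene in all 6 libraries, with 2684, 3382 and 2586 bp in epithelium, against 3292, 3456 and 2999 bp in mesenchyme, and the tissues overlapped (log2 difference within 2.5 kb of the start -0.07, SE 0.14, limma adjusted p = 0.913). In the first intron, 15.6 kb from the start, the region chr1:91816602-91817468 went the other way. It covered 592, 867 and 645 bp in epithelium, against 361, 534 and 569 bp in mesenchyme, so every epithelium library was wider. Of all regions in all 6 libraries 6.26% were wider in epithelium in this way, and this was the only one of 68 such regions at the 5 genes.

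Tcf3, which encodes the E-protein known from B cell development, lies at chr10:80409514-80433647 on the minus strand among 8 other protein-coding genes in its window. It had 125, 134 and 124 peaks in epithelium libraries 1, 2 and 3, against 124, 134 and 132 in mesenchyme libraries 1, 2 and 3. Scaled to list length, the values were 144, 119 and 130.1 in epithelium, against 131, 122 and 130.3 in mesenchyme, with overlap. The unscaled numbers had means of 128 ± 5.51 peaks in epithelium libraries and 130.0 ± 5.29 peaks in mesenchyme libraries (SD, n = 3 each). The log2 difference of scaled peaks was 0.04 (SE 0.10, limma adjusted p = 0.889, 95% interval of the fold 0.896 to 1.17), and the exact permutation p was 0.9. At 64.4 peaks per 100 kb the window stood at percentile 99.5 of all genes tested. Of its 69 kept regions 42 had a peak in all 6 libraries, 60.9% against 19.1% in the genome, and none was limited to a tissue. The peaks of this window are shared with the neighbours, so they cannot be assigned to Tcf3 by position alone.

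The start of Tcf3 lay in a broad region, chr10:80426033-80434538, with 6623, 7438 and 6266 bp in epithelium, against 6590, 7533 and 6763 bp in mesenchyme. The tissues overlapped there, and within 2.5 kb of the start the log2 difference was 0.09 (SE 0.14, limma adjusted p = 0.880). The widest region of the window, chr10:80380733-80394756, had 11046, 12602 and 10539 bp in epithelium and 11586, 12227 and 11489 bp in mesenchyme. Its midpoint lay between genes, but it covered the start of the neighbour Mex3d and reached into Mbd3. In 5 of the 42 regions (11.9%, near the 10.6% in the genome) every epithelium library was narrower than every mesenchyme library. The clearest were chr10:80366795-80369213, with 1158, 1127 and 1146 bp in epithelium against 1875, 2020 and 2142 bp in mesenchyme, and chr10:80451885-80453995, 19.3 kb upstream of the start, with 797, 677 and 956 bp in epithelium against 1559, 1659 and 1585 bp in mesenchyme. No region of Tcf3 was wider in epithelium in this way.

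Tcf4, the E-protein gene of Pitt-Hopkins syndrome, spans chr18:69343356-69689079 on the plus strand and has 44 annotated coding transcript starts. Its window, 446 kb in length, held 41, 54 and 53 peaks in epithelium libraries 1, 2 and 3, against 43, 50 and 43 in mesenchyme libraries 1, 2 and 3. The raw numbers overlapped, since epithelium library 1 had the fewest of all. Scaled to list length, they were 47.3, 48.1 and 55.6 in epithelium, against 45.4, 45.6 and 42.4 in mesenchyme, and did not overlap; 9.08% of all genes lay above without overlap in this way and 13% below. The log2 difference was 0.17 (SE 0.14, limma adjusted p = 0.559, 95% interval of the fold 0.924 to 1.38), and the exact permutation p was 0.1, the smallest possible.

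Of the 67 kept regions at Tcf4, 5 were epithelium-only, none was mesenchyme-only, and 6 had a peak in all 6 libraries. All 5 lay in introns, between 8.69 and 287 kb from the start. The widest, chr18:69514945-69515624, covered 631, 659 and 464 bp in epithelium libraries 1, 2 and 3. The region closest to the start, chr18:69351729-69352364, covered 449, 636 and 305 bp, and the third, chr18:69430332-69430892, covered 383, 474 and 561 bp. The remaining ones were chr18:69630342-69630789, with 439, 373 and 205 bp, and chr18:69384343-69384831, with 209, 480 and 199 bp, where the 3 peaks had only 23 bp in common. The share, 7.46% of the regions, compares with 2.98% epithelium-only in the genome. Under the looser rule Tcf4 had 14 regions for epithelium (20.9%, against 10.5% in the genome) and 13 for mesenchyme (19.4%, against 11.4% in the genome), so the share for epithelium was again above the background, but that for mesenchyme was too, and the imbalance between the tissues was not seen.

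**Figure D3:**
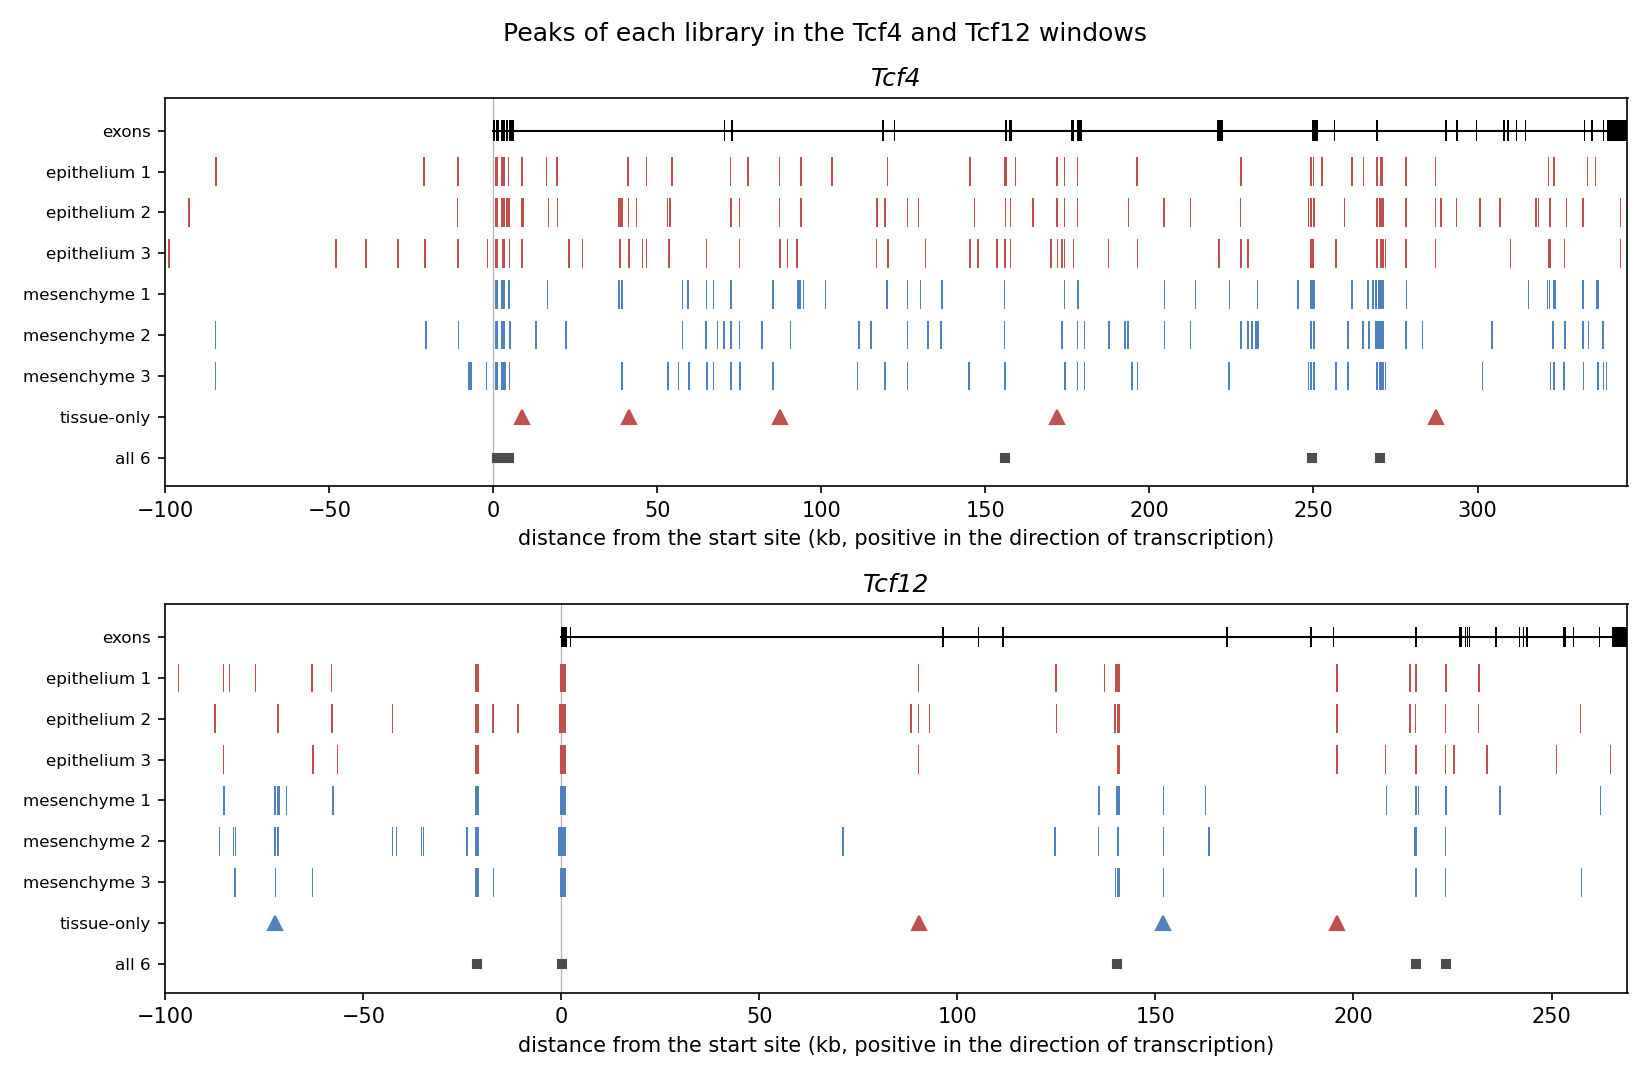
Peaks by library along the Tcf4 and Tcf12 windows (x axis, kb from the start site, positive in the direction of transcription), drawn as in the map of the Twist windows. Tcf4 has 5 red triangles and no blue one along its introns; Tcf12 has 2 of each.

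Each of the 6 regions of Tcf4 with a peak in every library overlapped an annotated transcript start, but none covered the upstream-most one. Within 2.5 kb of that start 888, 1012 and 1095 bp were covered in epithelium, against 1014, 891 and 1122 bp in mesenchyme (log2 difference 0.09, SE 0.24, limma adjusted p = 0.937). The nearest, chr18:69343922-69344745, had 735, 824 and 722 bp in epithelium, against 751, 718 and 740 bp in mesenchyme. The region 249.6 kb into the gene, at an internal transcript start, chr18:69592260-69593721, had 1164, 1334 and 1138 bp in epithelium, against 1423, 1170 and 1138 bp in mesenchyme, again with overlap. The widest, 270.2 kb into the gene at chr18:69612117-69614916, had 1650, 2043 and 1767 bp in epithelium, against 2256, 2599 and 2309 bp in mesenchyme, so every epithelium library was narrower. None of the 5 epithelium-only regions overlapped a start.

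Tcf12, the E-protein gene of skull suture fusion, lies at chr9:71842688-72111871 on the minus strand with no other protein-coding gene in its window. It held 18, 20 and 15 peaks in epithelium libraries 1, 2 and 3, against 17, 21 and 12 in mesenchyme libraries 1, 2 and 3. Scaled to list length, the values were 20.8, 17.8 and 15.7 in epithelium, against 17.9, 19.1 and 11.8 in mesenchyme, so epithelium library 1 was the highest, mesenchyme library 3 the lowest, and the tissues overlapped. The mean was 17.7 ± 2.52 peaks in epithelium libraries and 16.7 ± 4.51 peaks in mesenchyme libraries (SD, n = 3 each), with a log2 difference of 0.16 (SE 0.23, limma adjusted p = 0.771, 95% interval of the fold 0.808 to 1.55) and an exact permutation p of 0.7. At 4.65 peaks per 100 kb it was the sparsest of the 5 windows, at percentile 15.1.

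Of the 22 kept regions at Tcf12, 5 had a peak in all 6 libraries, 2 were epithelium-only and 2 mesenchyme-only. The epithelium-only regions, both intronic, covered 415, 402 and 365 bp (chr9:71915820-71916268, printed above) and 344, 317 and 305 bp (chr9:72021491-72021842) in epithelium libraries 1, 2 and 3. The mesenchyme-only ones covered 445, 374 and 398 bp (chr9:71959620-71960090, an intron, printed above) and 363, 217 and 329 bp (chr9:72183950-72184320, 72.3 kb upstream of the start) in mesenchyme libraries 1, 2 and 3. The start region, chr9:72110584-72112813, was open in both tissues, with 1756, 1750 and 1632 bp in epithelium, against 1704, 2212 and 1679 bp in mesenchyme (log2 difference within 2.5 kb of the start -0.00052, SE 0.18, limma adjusted p = 0.999). At an internal transcript start, chr9:71895941-71896301, the peak was narrower in every epithelium library, with 222, 281 and 222 bp in epithelium, against 321, 360 and 302 bp in mesenchyme.

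Across the 5 genes, 8 of 268 kept regions were epithelium-only, 2.99% against 2.98% in the genome, and 7 were mesenchyme-only, 2.61% against 2.2% in the genome. Together they made 5.60%, against 5.18% in the genome. A peak in more epithelium than mesenchyme libraries was seen at 57 of the 268 regions, against a background of 24.7%, and the reverse at 71, against a background of 30%. The tissue-only shares were close to the background, and the differences between genes rest on few regions. The plot of region shares gives them gene by gene. The 15 tissue-only regions were 311 to 828 bp wide (median 471), 9 lay in introns and 6 between genes, and none overlapped an annotated transcript start of its gene. The 68 regions in all 6 libraries were wider, with a median of 2160 bp, and 12 of them overlapped a start of their gene. Starts of neighbouring genes, which further regions of the Tcf3 window covered, are not in this count. Of those 68, 8 were narrower in every epithelium library (11.8% against 10.6% in the genome) and 1 was wider (1.47% against 6.26%).

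**Figure D4:**
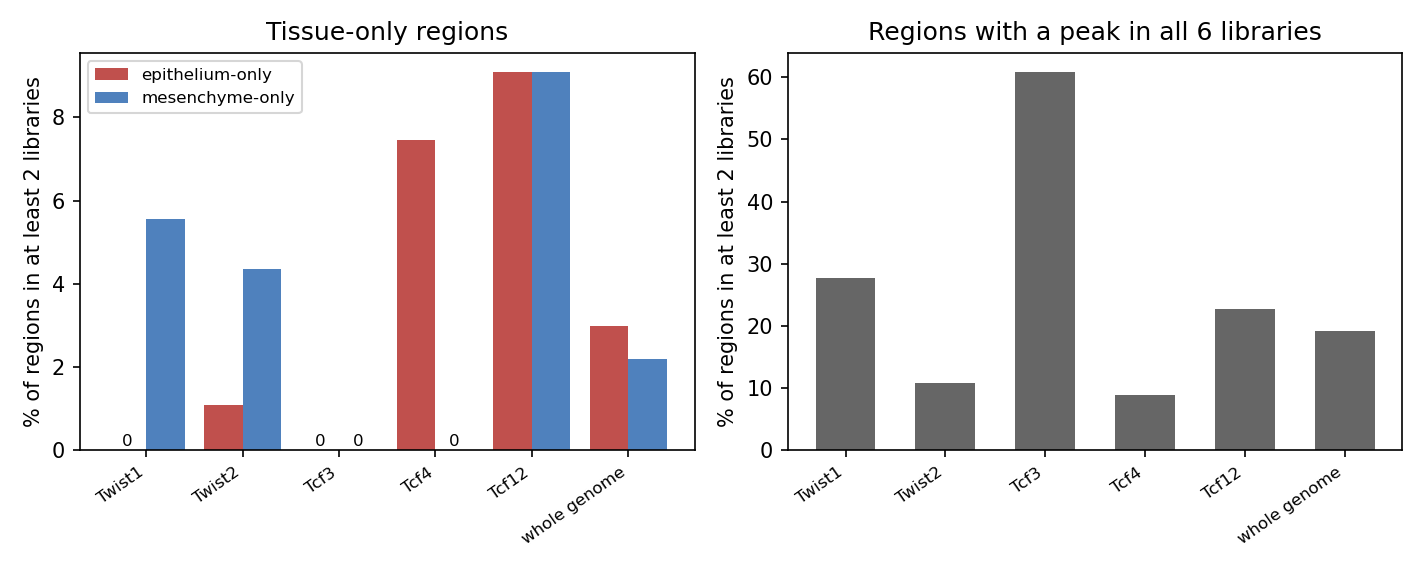
Share of the kept regions of each gene, and of the whole genome, that were epithelium-only (red) or mesenchyme-only (blue) in the left panel, and that had a peak in all 6 libraries in the right panel (y axes, percent of regions in at least 2 libraries). Tcf4 has 7.46% epithelium-only and no mesenchyme-only regions, Tcf3 has neither and 60.9% in all 6 libraries, and the genome has 2.98%, 2.2% and 19.1%.

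The length covered by peaks in each window was compared in the same way. It was called different for none of the 5 genes, while 1322 of all genes (6.09%) had more and 1623 (7.47%) fewer covered base pairs in epithelium. Twist1 had 7070, 10733 and 6770 bp in epithelium, against 10557, 8422 and 9699 bp in mesenchyme (log2 difference -0.14, SE 0.18, limma adjusted p = 0.656). Twist2 had 25517, 33461 and 26941 bp in epithelium, against 32697, 42529 and 28045 bp in mesenchyme (-0.14, SE 0.13, limma adjusted p = 0.491). At both Twist genes the tissues overlapped.

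The smallest p of the 5 was that of Tcf3, with 95180, 119956 and 104666 bp in epithelium, against 112016, 135049 and 124921 bp in mesenchyme (log2 difference -0.11, SE 0.06, limma adjusted p = 0.260). Tcf4 had 15324, 22521 and 18739 bp in epithelium, against 18558, 20190 and 16748 bp in mesenchyme (log2 difference 0.12, SE 0.14, limma adjusted p = 0.578). Tcf12 had 7709, 8957 and 6878 bp in epithelium, against 8509, 9243 and 6497 bp in mesenchyme (log2 difference 0.07, SE 0.19, limma adjusted p = 0.827). In these unscaled lengths the tissues overlapped at all 3 E-protein genes. Scaled to the mean covered length, as in the test, every epithelium library lay below every mesenchyme library at Tcf3. The share of all genes separated in this way was not counted for this measure. Around start sites the same test called 1 gene of 18189 higher in epithelium (0.0055%) and 0 lower, while 1153 were higher and 728 lower before adjustment (p under 0.05), so it could hardly have called a difference at these promoters.

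Other genes of the pathway were counted from lists chosen with earlier results of these data known. Of 21 helix-loop-helix partners and inhibitors, among them Id1 to Id4, Hand1, Hand2 and Ferd3l, 1 had more peaks in epithelium and none fewer, against 1.49% and 1.65% of all genes (median log2 difference -0.07). This was Hes1, a Notch-induced repressor, with 72, 106 and 78 peaks in epithelium, against 54, 74 and 63 in mesenchyme (log2 difference 0.47, limma adjusted p = 0.019), and the call was lost without epithelium library 2 (adjusted p = 0.102), mesenchyme library 1 (adjusted p = 0.0884) or mesenchyme library 3 (adjusted p = 0.0525). It also missed the threshold without scaling (adjusted p = 0.269), with no filter on low values (0.117), without a mean trend (0.167), with peaks given to the nearest start sites (0.0510) and over the gene body (log2 difference 0.03, adjusted p = 0.970), and so passed in 11 of 19 alternatives. None of the 4 E-box zinc finger genes, Snai1, Snai2, Zeb1 and Zeb2, passed for peaks (median -0.17). For covered base pairs Snai1, a repressor of Cdh1, passed with fewer in epithelium (-0.52, limma adjusted p = 0.000215), also without each library in turn, although the median of the 4 was 0.09 on this measure.

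Of 13 genes known as Twist1 targets or partners in the face and skull, none had more peaks in epithelium and 2 had fewer, against 1.49% and 1.65% of all genes (median log2 difference -0.0079). Prrx1, a homeobox gene of craniofacial mesenchyme, had 6, 16 and 14 peaks in epithelium, against 23, 24 and 28 in mesenchyme (log2 difference -1.04, limma adjusted p = 0.0106), with 5 mesenchyme-only regions and no epithelium-only one. The call was lost without epithelium library 1 (adjusted p = 0.104) or mesenchyme library 3 (adjusted p = 0.0535), without scaling (0.102), with no filter on low values (0.170), over the gene body only (0.207) and without a mean trend (0.159), and so passed in 13 of 19 alternatives. That for covered base pairs (-1.03, limma adjusted p = 0.000551) passed in all 9. Fgfr2, a receptor for fibroblast growth factors, had 515, 842 and 680 peaks in epithelium, against 756, 863 and 801 in mesenchyme (-0.21, limma adjusted p = 0.0349). Its annotated window spans 3061 kb with 890 kept regions, so these peaks cannot be assigned to Fgfr2 by position alone. The Fgfr2 call was lost without any of 5 of the 6 libraries, epithelium library 2 being the exception, and it passed in 6 of 19 alternatives. On covered base pairs, where 6.09% of all genes had more and 7.47% fewer in epithelium, 7 genes of these lists were called. Hes1, Cdh1 and Efnb1 passed with more in epithelium and Id3, Snai1, Prrx1 and Fgfr2 with fewer. Of these, Cdh1, which encodes the epithelial cadherin (0.36, limma adjusted p = 0.0472), passed in 2 of 9 alternatives, and Efnb1, a membrane ligand at skull sutures (0.50, limma adjusted p = 0.0192), in 5. Id3, an inhibitor of E-proteins (-0.29, limma adjusted p = 0.0336), passed in 4 of them, Fgfr2 in 5 and Hes1 in 8.

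The E-boxes these factors bind were then counted in each library's distal peaks, over 1 kb from any protein-coding start site, in the central 200 bp on both strands. CAGATG and CATATG are the forms preferred by Twist dimers, CAGCTG and CAGGTG those of E-protein dimers and, for CAGGTG, of Snai and Zeb factors, and a pair of E-boxes with 5 bases between them is known for Twist1 with an E-protein. CAGGTG was found in 21.45%, 20.82% and 21.32% of peaks in epithelium libraries 1, 2 and 3, against 19.98%, 20.09% and 19.91% in mesenchyme libraries 1, 2 and 3. Every epithelium library was higher, by 1.20 percentage points on average (exact permutation p = 0.1, two-sided, the smallest possible, adjusted over 5 motifs 0.333). GC content, which bears on such matches, was lower in epithelium, 52.4% ± 0.267 against 52.9% ± 0.192 in mesenchyme (SD, n = 3 each), and its part in the difference was not tested.

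**Figure D5:**
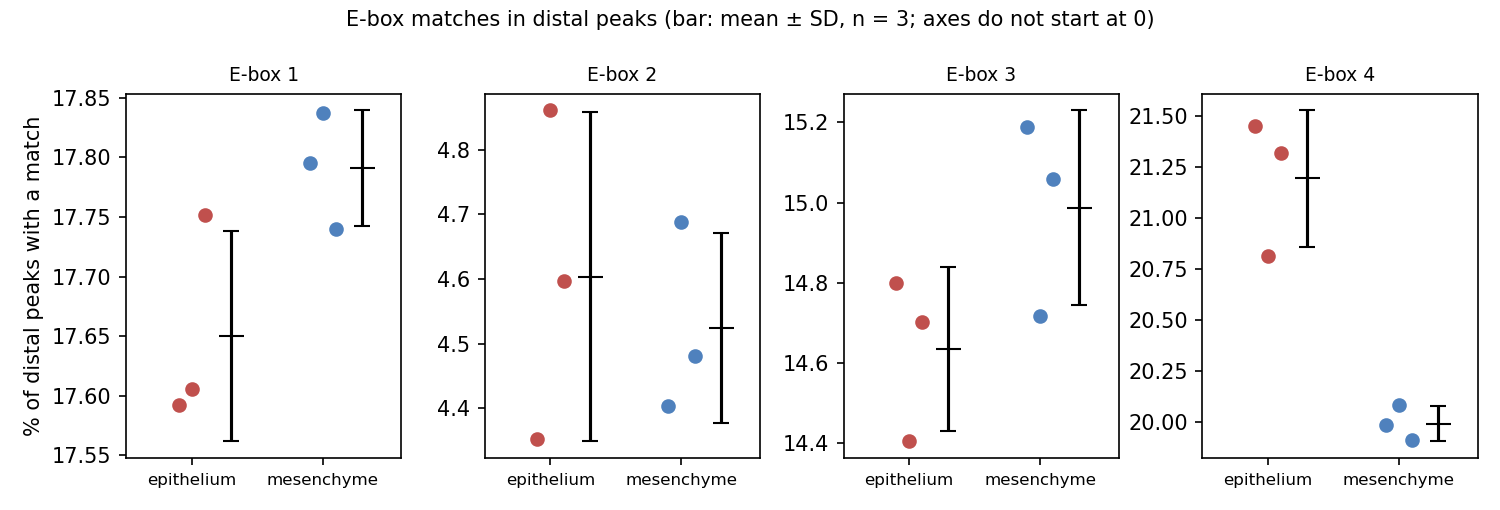
Share of each library's distal peaks with an E-box in the central 200 bp (y axes, percent, not starting at 0) in 3 epithelium (red, left) and 3 mesenchyme libraries (blue, right), with the mean and SD as black bars. E-box 1 is CAGATG, E-box 2 is CATATG, E-box 3 is CAGCTG and E-box 4 is CAGGTG; the tissues separate only in the last, at 20.82% to 21.45% in epithelium and 19.91% to 20.09% in mesenchyme.

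For the other motifs the tissues overlapped. CAGATG was in 17.6% ± 0.0883 of epithelium peaks and 17.8% ± 0.0487 of mesenchyme peaks (SD, n = 3 each, exact permutation p = 0.2). CAGCTG was in 14.6% ± 0.206 in epithelium and 15.0% ± 0.244 in mesenchyme (exact permutation p = 0.2), and CATATG in 4.60% ± 0.254 in epithelium and 4.52% ± 0.147 in mesenchyme (exact permutation p = 0.7). The spaced pair was in 0.861% in epithelium and 0.856% in mesenchyme (exact permutation p = 0.6).

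The same motifs were counted in the windows of the 5 genes. Here a region counted as away from start sites when it overlapped no protein-coding gene start, which is less strict than the 1 kb above. Among their 258 kept regions of this kind, 60 (23.3%) had CAGGTG, against 20.2% of such regions in the genome. CAGCTG was in 43 (16.7%, against 14.6% in the genome), CAGATG in 31 (12.02%, against 17.7%) and CATATG in 12 (4.65%, against 4.58%). The spaced pair was in 2 regions, both at Twist2, and in 0.867% of such regions in the genome. Of the 15 tissue-only regions, 7 had at least 1 of the 4 single motifs in their central 200 bp, none of them at Twist1 and 1 of 5 at Twist2. A match is a match of letters, and binding was not measured.

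The share of peaks by chromosome differed between the tissues for some of the chromosomes that hold these genes. Chromosome 12, which holds Twist1, took 4.46% to 4.70% of peaks in epithelium libraries and 4.13% to 4.38% in mesenchyme libraries. Chromosome 1, with Twist2, took 6.33% on average in epithelium and 6.15% in mesenchyme, and chromosome 9, with Tcf12, took 5.30% in epithelium and 5.57% in mesenchyme, in each case without overlap. Chromosomes 10 and 18, with Tcf3 and Tcf4, overlapped. With each chromosome scaled on its own, the log2 difference in peaks was -0.17 at Twist1, -0.16 at Twist2 and -0.02 at Tcf3. It was 0.17 at Tcf4 and 0.23 at Tcf12, and none of the 5 genes was called.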

How the data were processed

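Per the methods of the study and the notes of the submitters, the authors used Trimmomatic 0.38 for trimming, Bowtie2 for alignment to mm10 and SAMtools to drop duplicates, kept fragments under 100 bp and ran MACS2 2.1.1 on each library alone. The deposited lists hold chromosome, start and end of each peak, with no other value; no threshold for a peak is given in the sources used here, and a missing peak is not closed chromatin. DiffBind, which the study used, needs reads and was not run.

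The 5 genes and all gene lists were chosen with earlier results of these data known. Genes and start sites came from GENCODE M21 (GRCm38.p6, the same assembly as mm10) and sequences from RefSeq of the same build; all 5 genes matched. Peaks were counted by midpoint, scaled by list length to the mean list, and compared on the scale log2(peaks + 1) by limma 3.58.1 in R 4.3.3 (mean trend, no replicate block) for genes averaging 1 peak or more; covered base pairs used log2(bp + 100) after scaling to the mean covered length, and start sites a mean of at least 100 bp within 2.5 kb. A log2 difference on these scales understates that of genes with few peaks. The test was tried on simulated data for peaks per gene window with 21723 genes, where it recovered 91% of 2-fold and 100% of 4-fold changes, with 5 false calls. The simulated numbers were Poisson draws without further spread between libraries, and changes were placed only in genes above a minimum mean. Recovery in the real data can therefore be lower. The 5 genes are all named, the other lists are given by counts with the genes that passed, and the regions named were all tissue-only regions, the start region and the widest region in all 6 libraries of each gene. Other regions, such as those that did not overlap in width, were chosen after their values were seen. For each gene the 3 genes on other chromosomes with the most similar profile over the 6 libraries were taken, and 1 of them is not reported here. The labels call the libraries biological replicates, but the sources differ on how many embryos each one pooled, and p-values measure the spread between these libraries. Alternatives were other scalings, pseudocounts, filters, windows, minimum widths and overlaps, a replicate block, no trend, and each library left out.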

Additional observations from a re-analysis of the deposited data

How the results depend on the processing

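No one of the 5 genes passed the threshold under any of 185 alternatives of its log2 differences (lowest limma adjusted p = 0.157), and 23 of these differences changed sign, all of them uncalled; the cause was not tested. For peaks per window, Tcf3 (0.04) went to -0.026 without scaling, -0.021 with each chromosome scaled on its own and -0.015 in a window of 50 kb, Twist1 (-0.07) to 0.032 over the gene body only, and Tcf12 (0.16) to -0.048 with peaks of at least 300 bp. For covered base pairs without scaling Tcf12 went to -0.035. Within 1 kb of the start Twist1 went to 0.043 and Twist2 to 0.079, and around the start without scaling Tcf3 went to -0.022 and Tcf4 to -0.013. With each library left out in turn the ranges that crossed 0 were, for peaks, -0.27 to 0.13 at Twist1, -0.034 to 0.10 at Tcf3 and -0.039 to 0.28 at Tcf12; for covered base pairs, -0.090 to 0.18 at Tcf12; and around the start, -0.087 to 0.080 at Twist1, -0.051 to 0.18 at Tcf3, -0.026 to 0.18 at Tcf4 and -0.11 to 0.092 at Tcf12. The E-box difference for CATATG (0.08 percentage points) was -0.024 with peaks of at least 300 bp and -0.050 to 0.20 with each library left out, and that for the spaced pair -0.0025 to 0.010.

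The number of genes called depended strongly on the setting. For peaks per window the 323 genes with more and 359 with fewer in epithelium were 31 and 16 without scaling, 174 and 155 at 50 kb, 105 and 82 when peaks went to the nearest start sites, 4 and 0 without a mean trend, 0 and 1 with no filter on low values, and 0 and 0 over the gene body only; 220 were fewer with each chromosome scaled on its own. With each library left out they were 151 to 283 and 143 to 270. For covered base pairs the 1322 and 1623 were 318 and 481 without scaling, and 744 to 1018 and 905 to 1477 with a library left out. Around the start the 1 gene was 0 within 1 kb, 0 without scaling and 0 to 2 with a library left out.

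At the 5 genes the 8 epithelium-only and 7 mesenchyme-only regions were 23 and 27 when 2 libraries of a tissue sufficed, 15 were mesenchyme-only when 1 library of the other tissue was allowed, and with a library left out they were 9 to 14 and 9 to 14. At Tcf4 the 5 and 0 were 9 and 2 without epithelium library 2, and 7 and 5 without mesenchyme library 2. Same-numbered libraries share only a number: their deviations correlated at 0.018, 0.050 and -0.0086, and libraries 1 and 2 but not 3 correlated best with their own number. With the replicate block 428 genes had more and 574 fewer peaks in epithelium, none of the 5 genes passed, and around the start 0 genes were higher. Reads were not analysed here, so the limits above are those of peak calls: a weak site can fall on either side of the threshold in each library.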

Other observations

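The genes whose profile of scaled peaks over the 6 libraries was closest to each of the 5, on another chromosome, were Adh6a, Ces4a and Pou1f1 for Twist1, Pts, Amdhd1 and Ccdc38 for Twist2, Epn3, C1qa and Hhipl1 for Tcf3, Srgap3 and Nkapl for Tcf4, and Spryd7, Dzank1 and Polr3f for Tcf12. The root mean square difference on the log2 scale of the closest gene ran between 0.0129 for Epn3 and 0.0753 for Adh6a, among at least 19365 candidates each. Srgap3 had 66, 86 and 84 peaks in epithelium libraries 1, 2 and 3, against 71, 81 and 69 in mesenchyme libraries 1, 2 and 3.

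Hdac9, the neighbour of Twist1 that was chosen here after the values around Twist1 were seen, spans 869.5 kb, most of it beyond the Twist1 window. It held 33 kept regions, of which 1 was epithelium-only, 3 were mesenchyme-only and 5 had a peak in all 6 libraries, where the shares in the genome were 2.98%, 2.2% and 19.1%. Near Twist2, a region at chr1:91732404-91733638 had 766, 1107 and 719 bp under peaks in epithelium libraries 1, 2 and 3, against 338, 199 and 0 bp in mesenchyme libraries 1, 2 and 3, so the tissues did not overlap although 2 mesenchyme libraries had a peak. Among regions neither tissue-only nor in all 6 libraries, it was the only 1 higher in epithelium without overlap. The reverse was seen at 3 regions of Twist2, 4 of Tcf3 and 2 of Tcf4. The genome share of such regions was not counted.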
